A study of Homo sapiens with 4 samples.

Results

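Translation initiation factors are the proteins that bring the small ribosomal subunit, the initiator tRNA and an mRNA together before protein synthesis begins. Their genes were examined here in human cells labelled NB4, a promyelocytic leukemia line that carries the PML-RARa fusion. Cells had been kept for 24 h with 8 μM dBET1, a degrader that links the BET bromodomain proteins to the cereblon ubiquitin ligase (2 libraries), or with the same volume of its solvent DMSO (2 libraries). No other agent or genotype separated the groups, and whether the 2 libraries of a group came from separate cultures is not stated, so p-values measure only the spread between these libraries. Members were all protein-coding genes whose symbol begins with EIF1 to EIF6, without the EIF2AK kinases. The rule found 52 genes among the 64252 of the count table, and 50 of them passed the filter on low counts, which left 17971 genes in the test. EIF1AY, on the Y chromosome, and EIF4E1B, a cap-binding protein of oocytes, were not tested. EIF4E1B had 0 counts in every library, which allows up to 3 counts in each.

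The factors act in order. EIF2 carries the initiator tRNA to the small subunit and is recharged with GTP by EIF2B, EIF3 is the large scaffold that holds the complex on the small subunit, and EIF1 and EIF1A govern the choice of the start codon. The EIF4F complex, made of the cap-binding protein EIF4E, the helicase EIF4A and the scaffold EIF4G, recruits the mRNA, and the EIF4E-binding proteins keep EIF4E from EIF4G when mTOR signalling is low. EIF5 and EIF5B complete the joining of the large subunit, EIF6 keeps the subunits apart, and EIF5A carries the modified lysine hypusine and acts mainly in elongation. MYC is well known to raise the expression of several of these genes in blood cancers.

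The libraries held 28019956 to 34685645 counts. Levels are given as CPM, counts scaled to a common library size with TMM factors. Changes are log2 fold changes of dBET1 over DMSO with their standard error (SE), from a quasi-likelihood fit in edgeR whose p-values were adjusted over all 17971 tested genes. A gene is said to have fallen or risen only where this adjusted p was under 0.05. Separation of the groups is given as description only: EIF1, EIF2B2, EIF3D, EIF3E, EIF3H, EIF4A2, EIF4B, EIF4EBP3 and EIF5 were separated without passing the test. The share of all genes so separated was not counted. In bulk RNA, fewer cells of a type and less RNA per cell cannot be told apart. The lineage markers went against the label: the 7 granulocytic markers summed to 22.7 to 29.9 CPM, with ELANE and CTSG at 0 in every library, while 8 erythroid markers summed to 5236 and 6367 CPM with DMSO and to 3136 and 3081 CPM with dBET1. Of the T cell markers, CD3D was at 27.9 and 32.0 CPM with DMSO and at 11.1 and 10.6 CPM with dBET1, and CD3E had 2 counts in 1 DMSO library and 0 in the other 3 libraries. The erythroid sum and CD3D were thus lower with dBET1, as were most members, and their part in the results was not tested.

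Most initiation factor genes fell. Of the 50 tested, 34 were lower after dBET1 and 4 were higher, while 12 did not pass the test. The 34 include EIF3CL, EIF5AL1 and EIF2S3B, copies that can share reads with EIF3C, EIF5A and EIF2S3. Among all tested genes 27.6% were lower and 28% were higher. With the additional limit of a log2 fold change beyond 1 in size, 13 members were lower and 1 was higher, against 8.54% and 16.9% of all genes. EIF3CL and EIF5AL1 are among the 13. The count of 13 depended on the scaling and filter, with 3 past the limit for total counts only, 5 for upper-quartile factors and 8 for at least 10 counts in every library. That of 1 was 0 without DMSO replicate 2 and 3 without DMSO replicate 1. The median log2 fold change was -0.64 over the members and 0.048 over all genes. Together the 52 genes took 1.56% and 1.57% of all counts with DMSO but 1.21% and 1.22% with dBET1. The groups did not overlap.

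**Figure D1:**
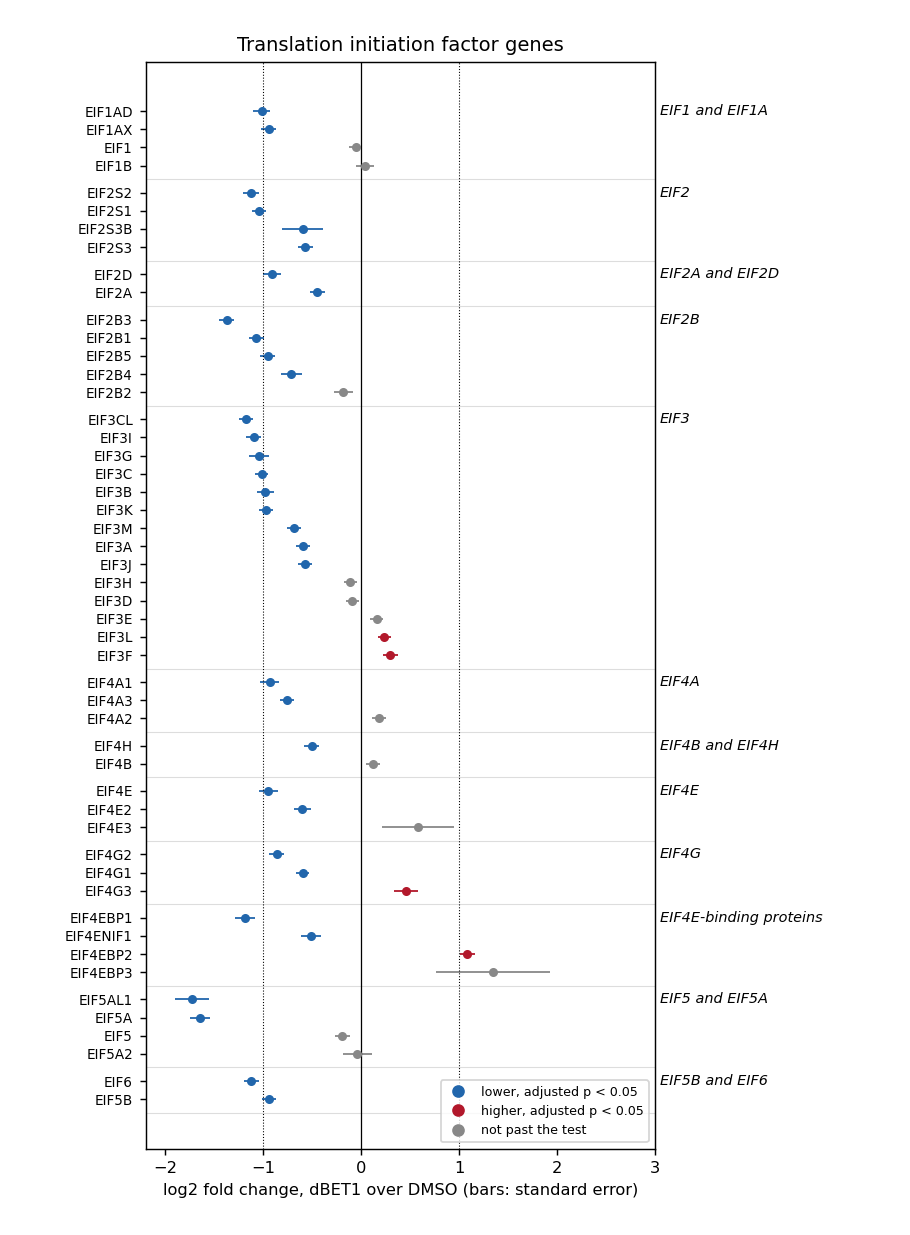
Log2 fold change of dBET1 over DMSO (x axis; bars are standard errors) for the 50 tested initiation factor genes, grouped by factor; blue genes were lower and red genes higher at an adjusted p under 0.05, grey genes did not pass, and dotted lines mark changes of 1. Blue points fill most groups, and the 4 red points are EIF3L, EIF3F, EIF4G3 and EIF4EBP2.

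Initiation factor genes are abundant, and abundant genes fell more often in these libraries than scarce ones. Among the 3595 most abundant tested genes, with a mean of at least 65.1 CPM, 58.1% were lower and 15.4% were higher, with a median log2 fold change of -0.37. Of the 39 members in that range, 29 were lower and 3 were higher, and their median was -0.86. A larger share of the members than of other abundant genes was therefore lower, but the difference is smaller than against all genes, and it was not tested.

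**Figure D2:**
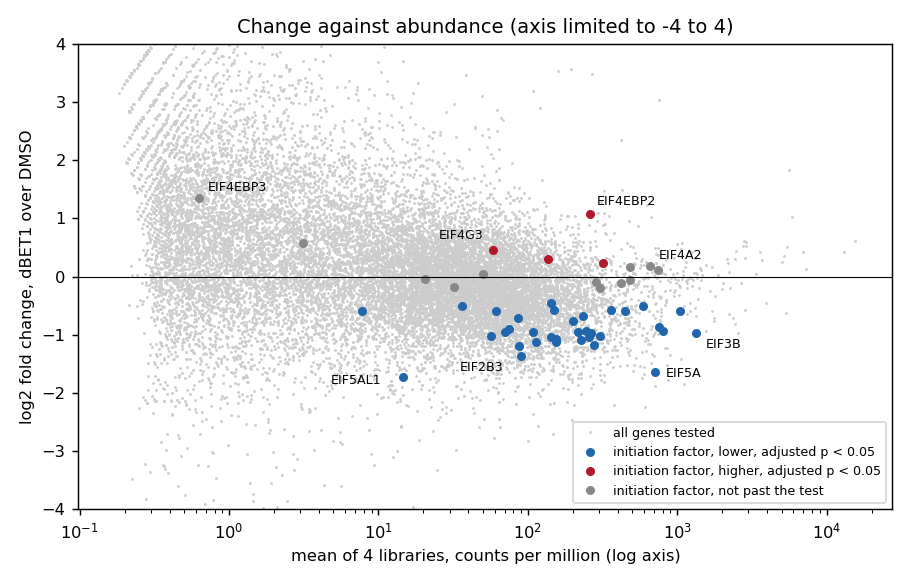
Log2 fold change of dBET1 over DMSO (y axis, genes beyond its ends not drawn) against the mean level over the 4 libraries in CPM (log x axis), with each tested gene in grey and the initiation factors in colour. The grey cloud slopes downward with abundance, and most of the members lie at its right end below 0.

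The sequence upstream of the genes was examined for CACGTG, the E-box letters that MYC and MAX bind, which read alike on both strands. RefSeq promoter windows of 42 of the 50 tested members were at hand. Within 250 bases upstream of an annotated start, 11 of the 42 (26.2%) held the letters, compared with 11.0% of 10976 tested genes and 7.73% of 27305 RefSeq genes with a window. By outcome these were 6 of 29 members that fell, 1 of 3 that rose and 4 of 10 that did not pass the test, so the letters were not limited to members that fell. EIF2S2, EIF3A, EIF3CL, EIF3E, EIF3G, EIF3H, EIF3L and EIF4EBP1 had no window and were not searched. The share with a match among genes as abundant as the members was not counted. A match is a string of letters and not evidence of binding. The stretches below (GRCh38.p14, strand of the gene, 5′ to 3′, E-box farthest upstream in capitals) are shown because they place the same letters before members with different outcomes. EIF4E, EIF4G1, EIF4A3, EIF4H and EIF2B3 fell, and EIF1B and EIF5A2 did not pass the test.
EIF4E: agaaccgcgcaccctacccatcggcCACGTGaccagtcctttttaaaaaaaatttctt
EIF4G1: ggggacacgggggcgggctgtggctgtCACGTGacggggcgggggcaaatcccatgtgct
EIF4A3: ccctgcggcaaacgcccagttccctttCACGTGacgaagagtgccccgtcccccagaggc
EIF4H: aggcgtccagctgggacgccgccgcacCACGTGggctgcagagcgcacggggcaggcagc
EIF2B3: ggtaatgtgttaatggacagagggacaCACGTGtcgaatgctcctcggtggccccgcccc
EIF1B: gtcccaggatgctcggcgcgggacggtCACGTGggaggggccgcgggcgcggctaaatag
EIF5A2: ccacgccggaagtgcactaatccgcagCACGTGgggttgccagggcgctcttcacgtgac
Distances are to the start in the RefSeq window, which can differ from the GENCODE bounds used for the genes elsewhere. The E-box began 225 bases before the RefSeq start of EIF4E (chr4:98929326-98929383, reverse strand, start at 98929133) and 144 before that of EIF4G1 (chr3:184314435-184314494, forward strand, start at 184314606). It began 121 bases before the RefSeq start of EIF4A3 (chr17:80147217-80147276, reverse strand, start at 80147128), 199 before that of EIF4H (chr7:74174130-74174189, forward strand, start at 74174356) and 179 before that of EIF2B3 (chr1:44986742-44986801, reverse strand, start at 44986595). For EIF1B it was 54 bases (chr3:40309626-40309685, forward strand, start at 40309707) and for EIF5A2 187 bases (chr3:170908792-170908851, reverse strand, start at 170908637). All 7 stretches lie outside the GENCODE bounds of their gene. Those of EIF3F, EIF3K and EIF4B, upstream of a RefSeq start but reaching into the GENCODE bounds, are not printed. The shorter stretch of EIF4EBP3, which lies outside the bounds, is not printed either. The windows of EIF4E, EIF4G1 and EIF5A2 held 2 matches each, of which the one farthest upstream is in capitals. For EIF5A2 the other match also lies within the printed stretch, in lower case.

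EIF5A and its copy EIF5AL1 had the lowest log2 fold changes of all members. EIF5A (chromosome 17, 7306999 to 7312463, forward strand, hg38) was at 967 and 1179.5 CPM in the DMSO libraries and at 353 and 335 CPM in the dBET1 libraries, without overlap. Its log2 fold change was -1.64 (SE 0.102, adjusted p = 1.89e-05), which leaves 32.0% of the DMSO level. EIF5AL1, a copy of it on chromosome 10, had 20.6 and 24.3 CPM against 6.0 and 7.57 CPM and a log2 fold change of -1.72 (SE 0.174). Reads of the pair can be exchanged between the copies, but the sum of both gave a log2 ratio of -1.64. The third paralog, EIF5A2, did not pass the test, with 23.3 and 18.3 CPM with DMSO, 20.3 and 20.2 CPM with dBET1 and overlapping groups. Both enzymes that make hypusine on EIF5A were lower as well. DOHH, the hydroxylase of the second step, went from 72.6 and 95.4 CPM to 29.3 and 33.1 CPM (log2 fold change -1.43, SE 0.141, adjusted p = 0.000121), and DHPS, the synthase of the first step, from 66.2 and 72.8 to 47.8 and 50.1 CPM (-0.51, SE 0.0912). EIF5, the activator of GTP hydrolysis on EIF2, did not pass the test, at 342 and 309 CPM with DMSO and 281 and 288 CPM with dBET1 (log2 fold change -0.20, adjusted p = 0.0612). It passed the test with DESeq2, with DESeq2 size factors, and without either DMSO library (log2 fold change -0.15 without replicate 1 and -0.30 without replicate 2). Over the 12 alternatives its log2 fold change ran from -0.30 to 0.014.

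All 4 EIF2 genes fell, beside 27.6% of all genes and 58.1% of the most abundant. EIF2S2, the β subunit, was at 201 and 219.5 CPM with DMSO and 100.2 and 93.0 CPM with dBET1 (log2 fold change -1.12, SE 0.0832, adjusted p = 3.53e-05). EIF2S1, the α subunit whose phosphorylation shuts down initiation under stress, was at 192 and 195 CPM and 95.8 and 92.2 CPM (-1.04, SE 0.0736). EIF2S3, the γ subunit that binds GTP and the initiator tRNA, fell less, from 447 and 408 CPM to 285 and 291 CPM (-0.57, SE 0.0749). In none of the 3 did the groups overlap, which also held for members that did not pass the test, such as EIF2B2 and EIF3H. EIF2S3B, a copy of EIF2S3 that can share its reads, was scarce, with 341 and 231 counts in DMSO against 203 and 171 in dBET1. Its adjusted p of 0.0408 was lost under 7 of the 12 alternatives, among them those without DMSO replicate 1 (-0.44), without dBET1 replicate 1 (-0.74) and without dBET1 replicate 2 (-0.48). EIF2A and EIF2D, which can deliver initiator tRNA apart from EIF2, also fell. EIF2D was at 101 and 95.5 CPM and 48.9 and 55.6 CPM (-0.91) and EIF2A at 172 and 157 CPM and 120.0 and 122 CPM (-0.45). EIF2A overlaps exons of SERP1 on the opposite strand, which had 8987 and 7504 counts with DMSO and 4957 and 5145 with dBET1, more than EIF2A itself at 5624 and 4421 and 3601 and 3717. A strand setting for the counts is not stated, so reads of such pairs cannot be told apart. The same holds for EIF2B1, EIF2B4, EIF3J, EIF4A2, EIF4ENIF1, EIF4G2 and EIF5B, among others.

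Of the 5 subunits of EIF2B, the exchange factor that is inhibited by phosphorylated EIF2, 4 fell. The share lower was 27.6% among all genes and 58.1% among the most abundant. EIF2B3 (chromosome 1, 44850522 to 44986722, reverse strand, hg38), the γ subunit, had the lowest value of the complex, 130.1 and 129.6 CPM for DMSO against 49.3 and 50.9 CPM for dBET1 (log2 fold change -1.37, SE 0.0788, adjusted p = 1.44e-05). EIF2B1, the α subunit that senses phosphorylated EIF2, went from 206 and 214 CPM to 98.0 and 102 CPM (-1.07, SE 0.0743). EIF2B5, the catalytic ε subunit, and EIF2B4, the δ subunit, had log2 fold changes of -0.96 and -0.71. EIF2B2, the β subunit and the least abundant of the 5 in counts, was the exception at 32.9 and 34.9 CPM with DMSO and 30.0 and 29.9 CPM with dBET1 (-0.18, SE 0.0994, adjusted p = 0.155). Its groups did not overlap, but the test was not passed. Exons of DDX55 and GTF2H3 overlap EIF2B1 on the opposite strand.

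The EIF3 genes parted. Of 14, 9 fell, 2 rose and 3 did not pass the test. Shares were 27.6% lower and 28% higher among all genes, and 58.1% and 15.4% among the 3595 most abundant. Log2 fold changes ran from -1.18 for EIF3CL to 0.30 for EIF3F. The 3 genes of the module of EIF3B, EIF3G and EIF3I, which sits apart from the core of the complex, fell to nearly the same degree, at -0.98, -1.04 and -1.10. EIF3B, the most abundant member in counts, was at 1637 and 1927 CPM with DMSO and 891 and 919 CPM with dBET1 (SE 0.0889, adjusted p = 8.28e-05). EIF3I, a WD-repeat protein, was at 298 and 322 CPM and 148 and 142 CPM. EIF3G, an RNA-binding subunit, was at 312 and 381 CPM and 167 and 169.9 CPM. Every dBET1 library lay below every DMSO library for each of these genes, as also for EIF3D and EIF3H, which did not pass the test.

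In the octamer core, made of EIF3A, EIF3C, EIF3E, EIF3F, EIF3H, EIF3K, EIF3L and EIF3M, 4 genes fell, 2 rose and 2 did not pass, over a span of 1.31 on the log2 scale. Beside these stand the 27.6% lower and 28% higher among all genes, and 58.1% and 15.4% among the most abundant. EIF3K dropped from 346 and 353 CPM to 179.8 and 177 CPM (-0.97, SE 0.0685). EIF3L, its direct neighbour in the complex, rose from 302 and 287 CPM to 345 and 348 CPM (0.24, SE 0.0691, adjusted p = 0.021). Of the MPN-domain subunits, EIF3F (chromosome 11, 7970251 to 8001862, forward strand, hg38) rose from 127 and 118 to 151 and 149 CPM (0.30, SE 0.0765, adjusted p = 0.0125). EIF3H, the other of the pair, did not pass the test and was at 445 and 424 CPM and 403 and 403 CPM (-0.11, adjusted p = 0.206). Neither rise was past the test without dBET1 replicate 1 or without dBET1 replicate 2, with log2 fold changes of 0.24 and 0.22 for EIF3L and 0.28 and 0.29 for EIF3F, nor with no count filter. EIF3H passed as lower without DMSO replicate 2, at -0.17, and its value turned to 0.10 when libraries were scaled by total counts only.

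EIF3C and EIF3CL are near-identical genes on chromosome 16, so the split of reads between them is uncertain. EIF3C was at 416 and 396 CPM with DMSO and 203 and 198 CPM with dBET1, and EIF3CL at 381 and 393 CPM and 172 and 171 CPM. Their sum went from 797 and 789 CPM to 375 and 369 CPM, a log2 ratio of -1.09 that was not tested. EIF3M (-0.68), EIF3A, the largest subunit (-0.59), and EIF3J, which is loosely bound (-0.57), fell less. EIF3E, a subunit of the core, was at 461 and 453 CPM and 509.9 and 510.4 CPM (0.16, adjusted p = 0.073), with both dBET1 libraries above both DMSO libraries. It passed as higher under 5 alternatives, among them total counts only (0.37) and the fit without DMSO replicate 1 (0.14). EIF3D, which can itself bind the cap of some mRNAs, was at 297 and 293 CPM and 274 and 279 CPM (-0.092, adjusted p = 0.274), and at 0.12 with total counts only.

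**Figure D3:**
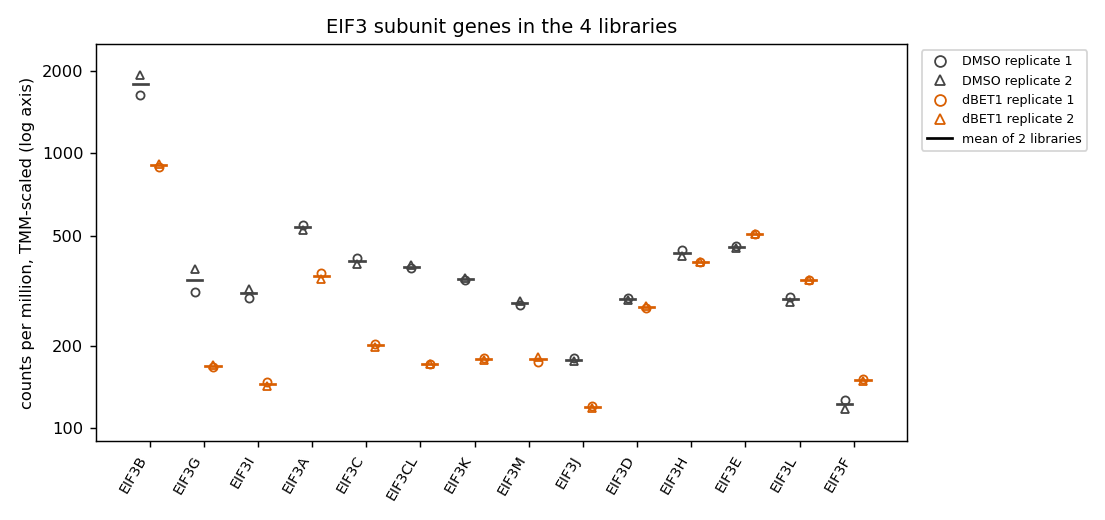
Level of the 14 EIF3 genes in CPM (log y axis) in each library, with DMSO in dark grey, dBET1 in orange, circles for replicate 1, triangles for replicate 2 and a bar at the mean of 2 libraries. From EIF3B to EIF3J the orange points lie below the grey ones, from EIF3D to EIF3H they nearly meet, and for EIF3E, EIF3L and EIF3F they lie above.

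The helicase genes of EIF4F exchanged their order. EIF4A1, the main EIF4A helicase, fell from 954 and 1142 CPM to 528 and 569.8 CPM (-0.93, SE 0.0973, adjusted p = 0.00016). EIF4A2, its close paralog, was at 631 and 593 CPM with DMSO and at 681 and 709 CPM with dBET1 (0.18, SE 0.0704, adjusted p = 0.0562), both dBET1 libraries above both DMSO libraries. Per kilobase of the canonical transcript, the level of EIF4A2 was 0.616 and 0.484 of that of EIF4A1 in the DMSO libraries and 1.2 and 1.16 of it in the dBET1 libraries. The sum of both genes gave a log2 ratio of -0.42. Exons of RFC4, with 4298 and 3833 counts in DMSO against 2645 and 2791 in dBET1, overlap EIF4A2 on the opposite strand. EIF4A2 passed as higher under 5 alternatives, among them total counts only (0.39) and the fit without DMSO replicate 1 (0.20). The readthrough gene SENP3-EIF4A1 shares the exons of EIF4A1 and had 3673 and 263 counts with DMSO and 1339 and 781 with dBET1, and adding it to EIF4A1 gave a log2 ratio of -0.93. EIF4A3, a helicase of the exon junction complex, fell from 251 and 257 CPM to 148 and 152 CPM (-0.76). Of the cofactors that stimulate the helicase, EIF4H fell from 696 and 689 CPM to 509 and 465 CPM (-0.51, SE 0.0733) while EIF4B was at 730.4 and 688 CPM and 791 and 749.7 CPM (0.12, adjusted p = 0.188). EIF4B passed as higher with total counts only and with upper-quartile factors, at 0.33 and 0.29.

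Of the EIF4E genes, EIF4E and EIF4E2 fell. EIF4E, the cap-binding subunit, fell from 97.1 and 89.2 CPM to 45.2 and 51.4 CPM (log2 fold change -0.95, SE 0.0984, adjusted p = 0.000155). EIF4E2, a cap-binding protein tied to translational repression, fell from 71.8 and 75.4 CPM to 50.1 and 47.1 CPM (-0.60, SE 0.087). EIF4E3, a further paralog, was scarce, at 3.28 and 1.74 CPM and 4.63 and 2.92 CPM, its groups overlapped, and it passed as higher only without DMSO replicate 1 (1.08). The scaffolds differed in direction. EIF4G1, the main scaffold, was at 1253 and 1282 CPM and 836 and 839 CPM (-0.60, SE 0.0646), and EIF4G2, which lacks the EIF4E site and serves cap-independent initiation, at 1025 and 923 CPM and 525 and 547 CPM (-0.86, SE 0.0773). EIF4G3, a close paralog of EIF4G1, rose from 54.4 and 44.1 CPM to 64.1 and 71.1 CPM (0.46, SE 0.119, adjusted p = 0.0129). Per kilobase it reached 0.0367 and 0.0291 of EIF4G1 with DMSO and 0.0648 and 0.0716 with dBET1. Its rise did not pass the test without dBET1 replicate 2 (0.36) or with no count filter (0.40).

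The EIF4E-binding proteins went in opposite directions. EIF4EBP1, the binding protein best known as an mTOR substrate, fell from 111 and 131 CPM to 54.2 and 52.1 CPM (log2 fold change -1.19, SE 0.0998, adjusted p = 5.94e-05). EIF4EBP2 (chromosome 10, 70404145 to 70428618, forward strand, hg38), a repressor of the same kind, rose from 175 and 159.6 CPM to 351 and 357 CPM (log2 fold change 1.08, SE 0.076, adjusted p = 2.85e-05), and was the only member that was higher past both the test and the limit of 1. Without DMSO replicate 2 it was at 0.99. Per kilobase of canonical transcript the ratio of EIF4EBP2 to EIF4EBP1 went from 0.173 and 0.135 to 0.716 and 0.756. EIF4EBP3, at 18 and 4 counts in DMSO against 27 and 28 in dBET1, shares exons with the readthrough gene ANKHD1-EIF4EBP3. Its log2 fold change was 1.34 (SE 0.585, adjusted p = 0.0841), and it passed as higher only without DMSO replicate 1 (2.61). EIF4ENIF1, which carries EIF4E into the nucleus, fell from 42.7 and 42.7 CPM to 27.9 and 31.9 CPM (-0.51, adjusted p = 0.00423). It was short of the test without dBET1 replicate 1 (-0.43).

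**Figure D4:**
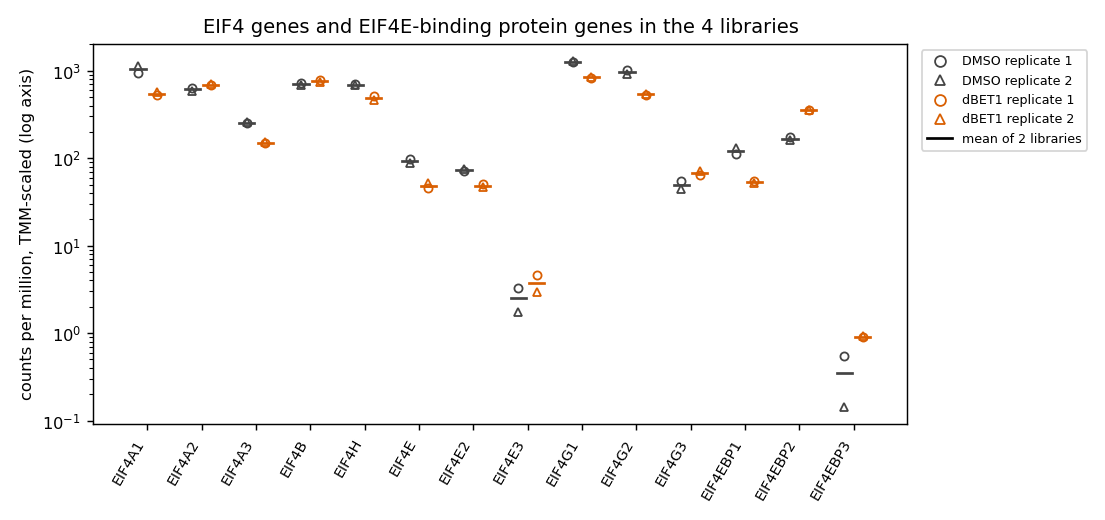
Level of 14 genes of the EIF4 factors and EIF4E-binding proteins in CPM (log y axis) in each library, with DMSO in dark grey, dBET1 in orange, circles for replicate 1, triangles for replicate 2 and a bar at the mean of 2 libraries. EIF4A1 drops below EIF4A2, and EIF4EBP1 and EIF4EBP2 move apart.

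The EIF1 and EIF1A genes were also uneven. EIF1AX, the X-linked EIF1A gene, fell from 291 and 278 CPM to 152 and 144 CPM (-0.95, SE 0.0737, adjusted p = 4.3e-05), and EIF1AD, which shares the EIF1A domain and works in 40S maturation, from 74.8 and 77.0 CPM to 38.9 and 36.3 CPM (-1.01, SE 0.0881). EIF1, which enforces the choice of AUG, was at 475 and 505 CPM and 473 and 469 CPM (-0.057, adjusted p = 0.513), and its paralog EIF1B at 46.9 and 51.8 CPM and 51.2 and 50.3 CPM (0.041, adjusted p = 0.728). With total counts only, EIF1 was at 0.15, short of the test, and EIF1B at 0.25, past it. The genes EIF6 and EIF5B, which act around subunit joining, were lower. EIF6 fell from 159 and 151 CPM to 71.6 and 70.9 CPM (-1.12, SE 0.0768, adjusted p = 2.66e-05), and EIF5B, the GTPase of the last step, from 333 and 313 CPM to 172 and 164 CPM (-0.94, SE 0.0735).

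Other genes of the pathway, which the rule leaves out, were listed separately. Of 44 such genes tested, 19 fell, 12 rose and 13 did not pass the test, with a median log2 fold change of -0.11, beside 27.6% lower and 28% higher among all genes. Among 15 partners of initiation 8 fell and 2 rose. ABCE1, which recycles ribosomes, went from 241 and 204 CPM to 115 and 109 CPM (-0.99, SE 0.0961), and BZW2, a mimic of EIF5, from 149 and 139 to 78.1 and 78.0 CPM (-0.88). PDCD4, an inhibitor of the EIF4A helicase, rose from 23.2 and 20.2 CPM to 64.9 and 54.8 CPM (1.46, SE 0.122, adjusted p = 5.79e-05). PABPC1, the main poly(A)-binding protein, rose by 0.24 on the log2 scale, a call lost without dBET1 replicate 1, without dBET1 replicate 2 and with no count filter. Of the 6 genes for kinases and phosphatase subunits that act on EIF2S1, PPP1R15A, the stress-inducible phosphatase subunit, rose from 67.3 and 69.2 CPM to 159 and 144 CPM (1.15, SE 0.0837, adjusted p = 3.3e-05). EIF2AK4, the kinase GCN2 that senses uncharged tRNA, fell by 0.66 on the log2 scale. EIF2AK1, the heme-regulated kinase, had a log2 fold change of 0.21 (adjusted p = 0.0393) and passed in 5 of 12 alternatives. EIF2AK2, EIF2AK3 and PPP1R15B did not pass the test.

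Among 9 genes of signalling to initiation, 3 fell and 5 rose, beside 27.6% lower and 28% higher among all genes. MTOR, the kinase itself, rose by 0.27 on the log2 scale (adjusted p = 0.0279), a call lost without dBET1 replicate 1, without dBET1 replicate 2 and with no count filter. RPS6KB2, a kinase of ribosomal protein S6, had a log2 fold change of -0.25 (adjusted p = 0.0389) and passed in 5 of 12 alternatives. TSC1 and TSC2, which restrain mTOR complex 1, rose from 20.5 and 21.0 CPM to 44.9 and 46.8 CPM and from 76.1 and 86.3 CPM to 129 and 139.6 CPM (1.15 and 0.73). RHEB, the GTPase that activates the complex, and RPTOR, its scaffold, fell, at -0.68 and -0.87. MKNK1 and MKNK2, the kinases that phosphorylate EIF4E, rose, at 0.52 and 0.45. Of 10 elongation and termination genes 4 were lower and 3 higher, beside the same 27.6% and 28% of all genes. EEF2, the translocase of elongation, rose from 3793 and 3923 CPM to 7975 and 7659 CPM (1.02, SE 0.0653, adjusted p = 2.09e-05) and EEF1A1, which delivers aminoacyl-tRNA, from 11178 and 13582 CPM to 18637 and 18988 CPM (0.60). The release factor genes ETF1 and GSPT1 fell, at -1.15 and -1.04, and so did EEF1E1, a member of the tRNA synthetase complex, at -1.62. EEF1B2, an exchange factor of elongation, had a log2 fold change of -0.32, a call kept in 8 of 12 alternatives and lost without dBET1 replicate 1, without dBET1 replicate 2, with total counts only and with upper-quartile factors. In mitochondria, the initiation factor gene MTIF2 fell (-0.68) and MTIF3 did not pass the test (0.15).

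**Figure D5:**
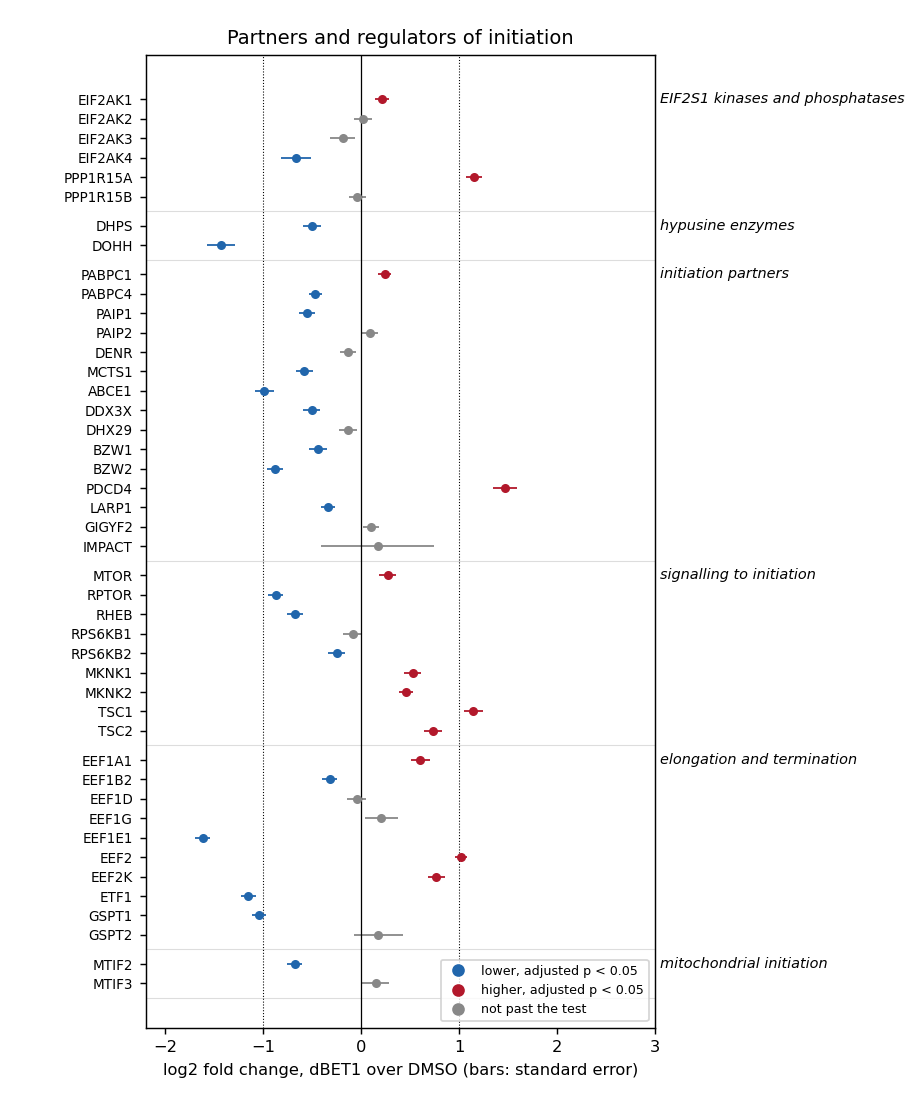
Log2 fold change of dBET1 over DMSO (x axis; bars are standard errors) for 44 genes of the pathway outside the initiation factors, grouped by list and coloured as lower (blue), higher (red) or not past the test (grey). Points lie on both sides of 0 in most lists, with PDCD4 farthest to the right and EEF1E1 farthest to the left.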

How the data were processed

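RNA of 2 dBET1 and 2 DMSO libraries was sequenced as paired-end reads. The authors aligned them to hg38 (Ensembl) with HISAT2 2.2.0 and quantified them with StringTie. The deposited values are counts, whole and not normalized, for each gene. How abundances became counts, and whether strand was used, is not given in the sources used here. The labels name TRIzol for the RNA extraction and the paper's methods a column kit. Columns named NC were taken as the DMSO libraries by group, time and replicate number; 0 columns belonged to other samples and 0 rows named no gene. Symbols, gene bounds, overlaps and canonical transcript lengths came from GENCODE release 44 (hg38), which held 56105 of the 64252 identifiers, and upstream sequences came from RefSeq (GRCh38.p14). Pseudogenes of the members, 81 in the table, held 0.537 to 0.585% as many counts as the members, so reads they took would change the sums little.

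Counts were filtered with filterByExpr, scaled with TMM factors (0.918 to 1.08) and compared by edgeR 4.0.16 (glmQLFit, glmQLFTest; R 4.3.3) with group as the sole term and Benjamini-Hochberg adjustment over 17971 genes; the SE is the log2 fold change over the root of F. The steps were tested on simulated data. The limit of 1 and the adjusted p of 0.05 are those of the paper's methods, which name DESeq2. The caption of its volcano plot gives a different p-value limit. Replicates of a group differed by more than sampling noise (chi-square per degree of freedom of 23.6 for DMSO and 8.14 for dBET1 over genes with at least 100 counts in the pair). The members and lists were chosen with earlier results of these data known. Named members are those past both thresholds, the extremes of each factor, those against their group's direction and paralogs, plus others given by value alone; partner genes come from the fixed lists. Results were recomputed with DESeq2 1.42.0, with size factors from DESeq2, with upper-quartile factors, with total counts alone, without the filter, with a minimum of 10 counts per library, with counts divided by 2, with the replicate block and without each library. No table of the authors' own comparisons was used.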

Additional observations from a re-analysis of the deposited data

How the results depend on the processing

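The number of members lower at an adjusted p under 0.05 was 32 to 36 in all 12 alternatives, against 34. Larger in effect was the scale: with total counts only and with upper-quartile factors the median over all genes moved to 0.26 and 0.21. That of the members moved to -0.43 and -0.47. A change of scale shifts all genes nearly alike, so the difference between the medians, -0.69 as with TMM factors, could hardly move. Over all alternatives this difference ran from -0.95 with no count filter to -0.63 with at least 10 counts in every library. With total counts only and with upper-quartile factors, 8 and 7 members were higher in place of 4, and 3 and 5 in place of 13 were lower past the limit of 1. With no count filter 1 member was higher and the median was -0.69. At least 10 counts in every library gave 8 members lower past the limit and a median of -0.61. DESeq2 and its size factors in edgeR gave medians of -0.66, and counts divided by 2 gave -0.61. With libraries left out singly, 1 to 8 members were higher (1 without dBET1 replicate 2, 2 without dBET1 replicate 1, 8 without DMSO replicate 1), 0 to 3 were higher past the limit (0 without DMSO replicate 2, 3 without DMSO replicate 1), and the median ran from -0.70 to -0.65. A group left with 1 library is assumed to vary like the other. The median of EIF4B and EIF4H turned to 0.016 with total counts only, and that of the EIF4E-binding proteins to -0.44 with at least 10 counts in every library, where EIF4EBP3 was not tested. No other cause was tested. With the replicate block, 34 members were lower and 4 higher, and it changed no member's call. The correlation of deviations between replicate numbers was -0.00052. With 2 libraries a group it cannot show whether the numbers pair the samples, which the labels do not say. With 44 partner genes, 15 to 22 were lower and 9 to 14 higher. The share of counts in the members, 0.777 of that with DMSO, was 0.790 over coding genes. SDs and SEs rest on 2 libraries a group, and scarce members such as EIF4E3 and EIF4EBP3 have too few counts for a firm value.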
